A study of Mus musculus with 6 samples.

Results

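The genes described here encode the complement cascade, the clotting factors with their inhibitors and receptors, and the plasminogen system that dissolves fibrin. They were chosen by name, as a list of 46 gene symbols looked up in the authors' deposited table, of which 40 were found among its 16138 genes. Cfd, Cfi, Proc, Serpind1, A2m and Plg were not analysed here. The RNA came from mouse bone marrow-derived macrophages, grown from marrow cells for 7 days with 50 ng/ml of macrophage colony-stimulating factor (M-CSF). Knockout cells (3 samples, called cKO) had the genotype Morrbidfl/fl/Lyz2-Cre. Control cells (3 samples, headed WT in the authors' deposited table) had the genotype Morrbidfl/fl, so that both groups carried the loxP-flanked gene of the long non-coding RNA Morrbid. In the cKO mice, Cre recombinase is made from the Lyz2 locus, which is active in macrophages, granulocytes and their precursors. Cre was present in the cKO samples only, so its own effects and those of Morrbid loss cannot be told apart. Strain, sex and age of the mice were not stated in the labels, nor was it stated that each sample was a separate animal. The p-values therefore cover only the spread among the samples as labelled, and that spread may be technical. The series concerns aneurysm of the abdominal aorta and inflammation of the vessel wall, and the comparison sets the transcripts of cKO macrophages against those of control macrophages.

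Complement is a set of plasma proteins in which C1q bound to a surface, or slow spontaneous activation of C3, starts a chain of proteases that coats the surface with C3 fragments and can end in a membrane pore. Clotting starts when tissue factor binds factor VII and ends with fibrin, which factor XIII crosslinks and plasmin digests. The liver makes most of these proteins, but macrophages are a main source of C1q and also make C3, factor XIII A chain, urokinase and its receptor.

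Each gene has 1 log2 fold change (cKO over control, its ratio below), 1 p-value and 1 q-value in the authors' deposited table, and a q under 0.05 was the threshold for a call. Single libraries were not analysed here, and their depth is unknown. The standard error implied by a ratio and its p-value, for a test of the Wald type, was used as the measure of precision and gave the 95% intervals below. Its median was 0.414 log2 units for the 40 genes and 0.185 for all genes. Morrbid itself was not analysed here. Lyz2, whose locus carries Cre, was lower at -0.85 (q = 4.6e-06) by the authors' deposited table. Of 8 macrophage markers, Adgre1 was higher, at 0.44 with q = 0.0104 by the authors' deposited table, and Lyz2 was the lower one. The other macrophage markers did not pass, and the median of the 8 was 0.06. All 15 fibroblast and stromal markers had ratios below 0, from -2.48 to -1.25 with a median of -1.70, and 3 of them passed the threshold. Of 8 hepatocyte markers, Apoa2 and Ambp were listed in the authors' deposited table without passing, and Alb and Ttr were among the 6 not analysed here. None of 7 neutrophil markers passed, and all 7 had ratios below 0 (median -0.21). Mmp8 had the smallest p of these, at -0.47 with p = 0.0191 and q = 0.346 by the authors' deposited table. The 3 markers of mast cells and basophils found (median -0.02) did not pass.

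Among the 40 genes, F13a1 fell in cKO macrophages and the other 39 did not pass the threshold. That is 2.5% of the members, beside 1.72% of all genes called in either direction, with 0.849% called higher and 0.874% called lower. The share of members called is thus near that of all genes. Their median log2 fold change was -0.03, with 22 genes below 0 and 18 above, against a median of -0.01 over all genes. An unadjusted p under 0.05 was reached by 8 members (20%), 3 with ratios above 0 and 5 below, where 8.84% of all genes reached it. These were C1ra, C3 and Procr with ratios above 0, and F13a1, Gas6, Plat, Serpine2 and Serpinb2 with ratios below 0. The members were chosen with earlier results of these data known, so these shares are a description.

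**Figure D1:**
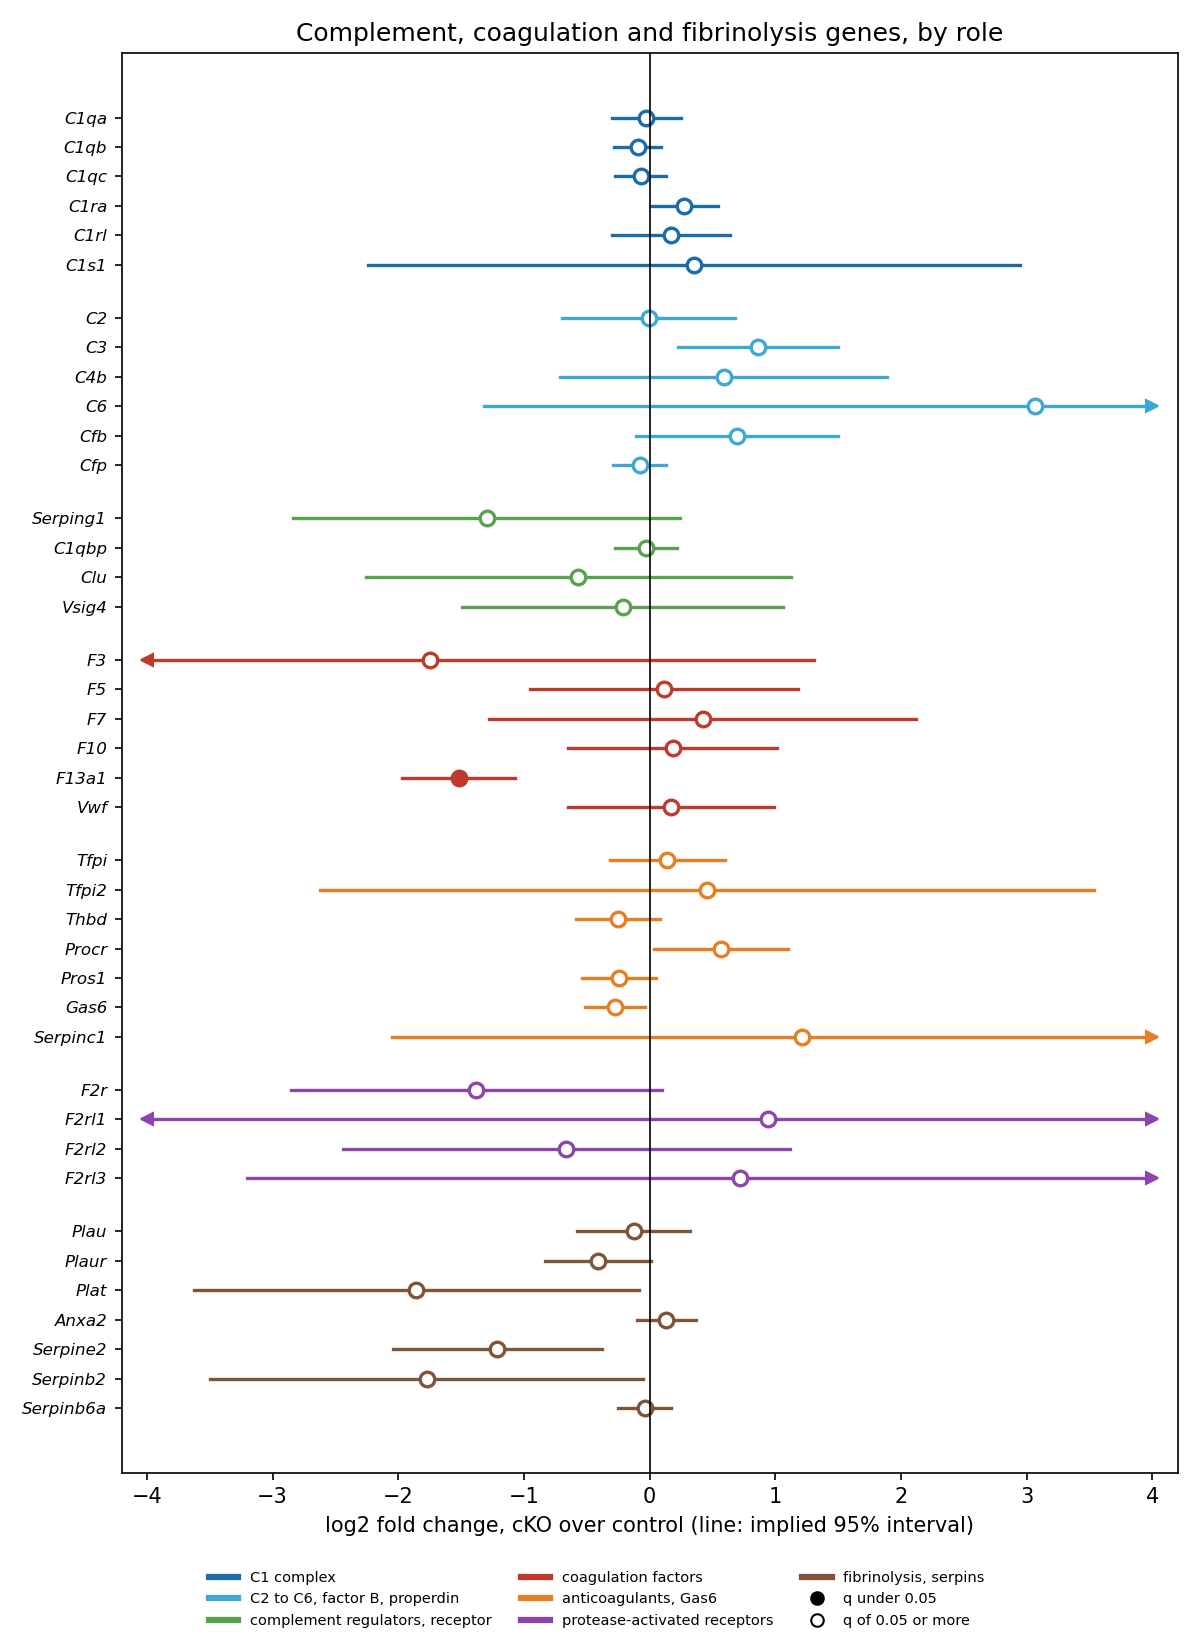
Log2 fold change of cKO over control (horizontal axis) for each of the 40 genes, grouped and coloured by role; lines are implied 95% intervals, arrowheads mark intervals that run beyond the axis, and a filled point has a q under 0.05. F13a1, at -1.52, is the only filled point. The C1q chains at the top have narrow intervals around 0, as do Cfp, C1qbp, Anxa2 and Serpinb6a.

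F13a1 (Gene ID 74145) encodes the A chain of coagulation factor XIII, the transglutaminase that crosslinks fibrin and that monocytes and macrophages carry inside the cell. It was lower in cKO macrophages, with a log2 fold change of -1.52, p = 3.35e-11 and q = 4.51e-08 by the authors' deposited table. The cKO level was 0.349 times the control level, and the implied 95% interval ran from -1.97 to -1.07. As the cultures were sequenced in bulk, fewer cells of a type that expresses a gene and less RNA per cell cannot be told apart. F13a1 is high in blood monocytes and in megakaryocytes, so their markers are given beside it. Of 8 markers of monocytes and progenitors, 7 had ratios below 0 (median -0.40, from -1.97 to 0.11), and Cd34, a surface mucin of progenitors and stromal cells, passed at -1.97 with q = 1.4e-11 by the authors' deposited table. The monocyte genes Ly6c2 (-0.21, p = 0.724, q = 0.993) and Ccr2 (-0.45, p = 0.026, q = 0.408) were short of the threshold in the values of the authors' deposited table. The interval of Ccr2, from -0.84 to -0.05, lay below 0, and that of Ly6c2 ran from -1.36 to 0.94. Of 8 megakaryocyte and platelet markers 5 had ratios below 0 and none passed (median -0.71, from -1.20 to 0.25), with 4 of the 8 at an implied standard error over 1. The platelet chemokine genes Ppbp (-0.94, p = 0.00456, q = 0.154) and Pf4 (-0.97, p = 0.00684, q = 0.197) had the smallest p of these by the authors' deposited table. Their intervals, from -1.59 to -0.29 for Ppbp and from -1.67 to -0.27 for Pf4, lay below 0. The part of other cell types in the value of F13a1 was not tested.

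RefSeq lists 2 transcription starts for F13a1. The 250 bases before each are shown because F13a1 is the gene that passed, and those of Serpine2 and C3 because they had the smallest p among the genes that did not pass, in each direction. Capitals mark matches, on either strand, to any of 5 motifs. These were the TATA box, spelled as TATAAA, the AP-1 site, spelled as TGACTCA, and the PU.1 site, spelled as GAGGAAG, with the C/EBP site, spelled as TTGCNNCAA, and the GC box, spelled as GGGCGG. Positions are those of RefSeq on GRCm38.p6, and all of these genes lie on the minus strand; the sequences read 5′ to 3′ towards the start.
F13a1, upstream start, chr13:37050245-37050494: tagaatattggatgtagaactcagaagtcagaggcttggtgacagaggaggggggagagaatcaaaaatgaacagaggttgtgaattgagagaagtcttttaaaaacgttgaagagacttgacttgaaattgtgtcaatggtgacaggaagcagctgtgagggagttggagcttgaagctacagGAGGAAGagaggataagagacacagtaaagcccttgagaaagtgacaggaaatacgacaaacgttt
F13a1, downstream start, chr13:37049214-37049463: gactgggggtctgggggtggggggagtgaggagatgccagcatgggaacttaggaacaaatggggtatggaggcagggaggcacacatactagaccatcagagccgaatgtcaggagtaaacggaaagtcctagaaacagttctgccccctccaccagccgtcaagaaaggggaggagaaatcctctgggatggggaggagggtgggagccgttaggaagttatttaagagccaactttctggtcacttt
Serpine2, chr1:79858666-79858915: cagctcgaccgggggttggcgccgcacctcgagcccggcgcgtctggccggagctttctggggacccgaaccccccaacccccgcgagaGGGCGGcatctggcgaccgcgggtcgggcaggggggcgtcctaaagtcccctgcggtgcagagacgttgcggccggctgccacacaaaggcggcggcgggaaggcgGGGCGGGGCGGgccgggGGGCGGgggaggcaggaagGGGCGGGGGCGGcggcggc
C3, chr17:57228137-57228386: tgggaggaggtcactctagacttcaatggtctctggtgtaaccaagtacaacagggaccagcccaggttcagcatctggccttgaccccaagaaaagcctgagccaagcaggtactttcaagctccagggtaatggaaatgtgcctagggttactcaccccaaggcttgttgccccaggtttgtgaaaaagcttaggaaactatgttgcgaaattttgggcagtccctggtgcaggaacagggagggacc
The upstream F13a1 window held 1 match to the PU.1 motif, a myeloid ETS factor, beginning 66 bases before the start. That motif was found in 10.6% of all 32851 windows of this length, which belong to 27025 RefSeq genes and not only to the genes measured here. The Serpine2 window held 6 matches to the GC box, some of them overlapping, which was found in 32.7% of all windows. The downstream F13a1 window and the C3 window held none of the 5 motifs. A match is a run of letters and is no evidence of binding. The 40 genes had windows for 29 members, 36 in all. The AP-1 motif was in 7 of these 36 windows (19.4%), against 4.46% of all windows. For the other motifs the shares among the members' windows were 16.7% for PU.1, 36.1% for the GC box, 11.1% for the TATA box and 2.78% for C/EBP. Over all windows they were 10.6% for PU.1, 32.7% for the GC box, 12.4% for the TATA box and 1.74% for C/EBP. The AP-1 windows belonged to F3, F2r, F2rl2, Plaur and C1qbp, with ratios below 0, and to Anxa2 and Procr, with ratios above 0. None of these 7 genes passed the threshold, and the intervals of all but Procr included 0.

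The other coagulation factors had ratios near 0 or were measured with little precision. F3, tissue factor, which starts clotting, stood at -1.75 (q = 0.987) by the authors' deposited table. Its implied 95% interval ran from -4.81 to 1.31, so a change of about 5.20 log2 units would have been needed to pass. F7, the protease that tissue factor binds, stood at 0.42 (q = 0.993) by the authors' deposited table. F10, the protease that F7 activates and a neighbour of F7 on chromosome 8, stood at 0.18 (q = 0.993) by the authors' deposited table. F5, the cofactor of factor X, was at 0.11 (q = 0.994) by the authors' deposited table. Vwf, the carrier of factor VIII that tethers platelets, was at 0.17 (q = 0.993) by the authors' deposited table. These last 4 lay above 0, between 0.11 and 0.42, and their intervals all included 0. Among the 11 related genes for clotting factors and their processing, none passed (median -0.02). Vkorc1, the vitamin K reductase that warfarin blocks, had the smallest p of these, at -0.30 with q = 0.263 by the authors' deposited table. Mcfd2, which with Lman1 carries factors V and VIII out of the endoplasmic reticulum, followed at -0.16 with q = 0.745 by the authors' deposited table.

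The C1 complex, which starts the classical pathway, had the lowest median implied standard error of the 7 role groups, 0.138 log2 units, and none of its 6 genes passed. C1qa, C1qb and C1qc, the 3 chains of C1q, are neighbours on chromosome 4. Their log2 fold changes were -0.03, -0.09 and -0.07 by the authors' deposited table (q = 0.994, 0.993 and 0.993). The implied 95% intervals were -0.30 to 0.25 for C1qa, -0.28 to 0.09 for C1qb and -0.28 to 0.13 for C1qc. At this precision a change of about 0.32 log2 units in C1qb would have passed the threshold. The proteases of C1 lie together on chromosome 6. C1ra stood at 0.27 (p = 0.0439, q = 0.53), with an interval from 0.01 to 0.54, by the authors' deposited table. C1rl, a C1r-like protease, stood at 0.17 (q = 0.993) by the authors' deposited table, and C1s1 at 0.35 (q = 0.993). The interval of C1s1 ran from -2.24 to 2.95, and its ratio says little. Mouse C1ra and C1s1 each have a near-identical copy among which reads could have been split, so their separate values are uncertain.

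Of the components that act after C1, C3 had the smallest p. C3, whose cleavage is the step all pathways share, had a log2 fold change of 0.86 with p = 0.00819 and q = 0.218 by the authors' deposited table. Its implied 95% interval ran from 0.22 to 1.50, and it did not pass after adjustment over all genes. Cfb, factor B, the protease of the alternative pathway, stood at 0.69 (p = 0.0911, q = 0.718) by the authors' deposited table. C2, its classical pathway counterpart and neighbour on chromosome 17, stood at -0.01 with an interval from -0.70 to 0.68 by the authors' deposited table. The adjacent genes Cfb and C2 thus differed by 0.70 in their ratios, within intervals that overlap. C4b stood at 0.59 (q = 0.993) by the authors' deposited table; its near-identical copy C4a stood at 2.41 (q = 0.826), and reads may have been split between them. C6, part of the membrane pore, had the highest ratio of all members, 3.06, with an interval from -1.31 to 7.44 and q = 0.886 by the authors' deposited table. Cfp, properdin, which stabilises the alternative convertase and is stored by myeloid cells, stood at -0.08 with an interval from -0.29 to 0.13 by the authors' deposited table. None of these 6 genes passed, and 4 of them had ratios above 0.

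Regulators and receptors of complement did not pass either, and all 4 measured members had ratios below 0. Serping1, the C1 inhibitor, a serpin that stops C1r, C1s and kallikrein, stood at -1.30 (p = 0.0982, q = 0.737) by the authors' deposited table. Clu, clusterin, which binds the terminal complex, stood at -0.57 (q = 0.993) by the authors' deposited table. Vsig4, the receptor for C3b on tissue macrophages, stood at -0.22 with an interval from -1.49 to 1.06 by the authors' deposited table. C1qbp, a mainly mitochondrial protein that binds C1q, stood at -0.03 with an interval from -0.27 to 0.22 by the authors' deposited table. Serping1 and Clu are also made by stromal cells, whose 15 markers had a median of -1.70; the part of such cells in these values was not tested.

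The receptors for complement fragments were measured more precisely. None of 9 related genes for complement receptors passed (median 0.03, from -0.21 to 0.30). C3ar1, the receptor for C3a, had the smallest p, at 0.30 with p = 0.00629 and q = 0.187 by the authors' deposited table. C5ar1, the receptor for C5a, stood at 0.07 (q = 0.993) by the authors' deposited table. Itgam and Itgb2, the chains of complement receptor 3, stood at 0.03 (q = 0.993) and 0.00 (q = 1.00) by the authors' deposited table. Nor did any of 8 genes for complement inhibitors on cells or in plasma pass, with Cd59a, which blocks the membrane pore, nearest at 0.34 (q = 0.604) by the authors' deposited table. Of the 11 genes of the lectin pathway and terminal components found, none passed either, and 6 had an implied standard error over 1. Masp1, a lectin pathway protease, had the smallest p there, at -1.16 with q = 0.625 by the authors' deposited table.

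**Figure D2:**
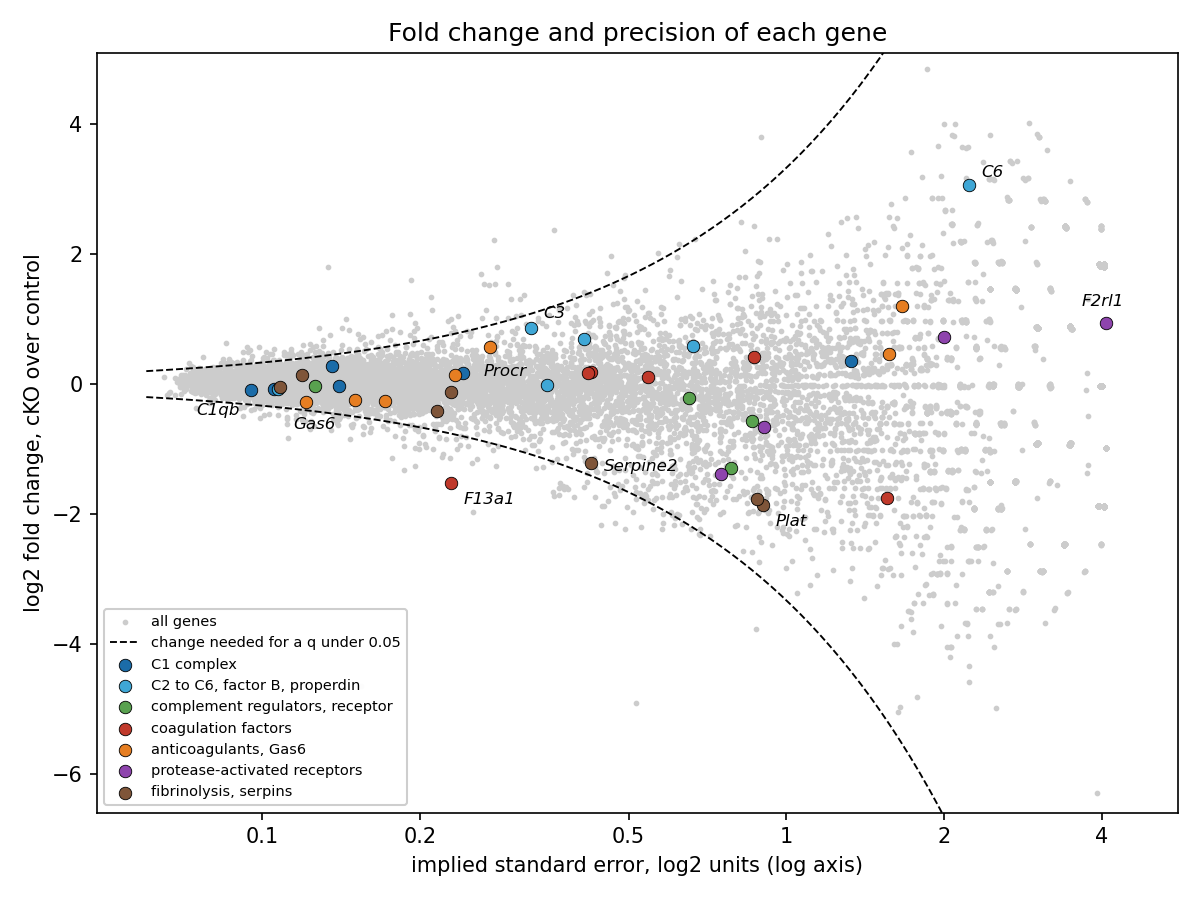
Log2 fold change (vertical axis) against the implied standard error (horizontal, log axis) for all 16138 genes in grey and the 40 members in colour by role; dashed lines mark the change needed for a q under 0.05. F13a1 lies outside the lines, Serpine2 and C3 lie inside but near them, and C6 and F2rl1 sit at the right, where 1 log2 unit is less than the standard error.

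None of the 7 measured genes that restrain clotting passed. Of the 5 with an implied standard error of 1 or less, those other than Procr had ratios from -0.27 to 0.14. Procr, the endothelial protein C receptor, which is also found on myeloid cells, stood at 0.57 (p = 0.0374, q = 0.495) by the authors' deposited table, with an interval from 0.03 to 1.10. Gas6, a ligand of the receptors Tyro3, Axl and Mertk that bridges dying cells to phagocytes, stood at -0.27 (p = 0.024, q = 0.39) by the authors' deposited table. Pros1, protein S, the cofactor of activated protein C and the other ligand of these receptors, stood at -0.24 (p = 0.108, q = 0.765) by the authors' deposited table. Both ligands thus had ratios a little below 0, with intervals of -0.51 to -0.04 for Gas6 and -0.54 to 0.05 for Pros1. Thbd, thrombomodulin, which turns thrombin towards protein C, stood at -0.25 (q = 0.833) by the authors' deposited table. Tfpi, the inhibitor of the tissue factor complex, stood at 0.14 (q = 0.993) with an interval from -0.32 to 0.60 by the authors' deposited table. Tfpi2 and Serpinc1 (antithrombin) had implied standard errors of 1.57 and 1.66 log2 units, and their ratios carry little information. Procr, Thbd, Tfpi and Vwf are typical of endothelium, so its markers are given here. Of 8 endothelial markers Pecam1, an adhesion molecule that leukocytes also carry, was higher at 0.81 (q = 0.00156) by the authors' deposited table. The other 7 did not pass, 4 of the 8 had an implied standard error over 1, and the median was 0.41; the part of endothelial cells was not tested. Among 6 related genes none passed. Of the receptors of Gas6 and Pros1, Axl stood at -0.65 (q = 0.712) and Mertk at 0.03 (q = 0.993) by the authors' deposited table. Tyro3 stood at -1.48 (q = 0.993) there, with an implied standard error of 1.36 log2 units.

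The protease-activated receptors, which thrombin and other proteases switch on by cutting their outer end, gave the least precise values. F2r, the main thrombin receptor PAR1, stood at -1.38 (p = 0.0668, q = 0.637) with an interval from -2.85 to 0.10 by the authors' deposited table. F2rl2 (PAR3), which helps thrombin to cut PAR4 in mouse platelets, stood at -0.66 (q = 0.993) by the authors' deposited table. F2rl3 (PAR4) stood at 0.72 (q = 0.993) with an implied standard error of 2.0 log2 units by the authors' deposited table. F2rl1 (PAR2), a receptor for trypsin-like proteases, had a ratio of 0.94 and a p of 0.818 by the authors' deposited table, and 390 other genes have exactly this pair of values. F2r, F2rl1 and F2rl2 lie together on chromosome 13, with Iqgap2 as the only other measured gene between them. PAR1 is abundant on fibroblasts, and the ratio of F2r lies within the range of the 15 stromal markers, from -2.48 to -1.25; the part of stromal cells was not tested.

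Fibrinolysis was the role group with the lowest median, with the complement regulators and receptors close to it at -0.39 (4 of 4 below 0). Among members whose implied standard error was 1 or less, the 2 protease-activated receptors had a lower median, -1.02. The 7 measured members of the fibrinolysis group had a median of -0.41, 6 of them below 0, while 52.3% of all genes were below 0. None passed. Serpine2, protease nexin 1, a serpin that inhibits thrombin, urokinase and plasmin at the cell surface, came nearest, at -1.21 with p = 0.00429 and q = 0.149 by the authors' deposited table. The cKO level was 0.432 times the control level, with an interval for the log2 ratio from -2.04 to -0.38. Plat, tissue plasminogen activator, stood at -1.86 (p = 0.0399, q = 0.511) by the authors' deposited table. Serpinb2, plasminogen activator inhibitor 2, which activated macrophages make in quantity, stood at -1.77 (p = 0.0434, q = 0.527) by the authors' deposited table. The activator Plat and the inhibitors Serpine2 and Serpinb2 thus had ratios on the same side of 0, all with wide intervals, such as -3.63 to -0.09 for Plat.

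The other 4 members of this group, Plau, Plaur, Anxa2 and Serpinb6a, had implied standard errors from 0.108 to 0.229 log2 units. Plau, urokinase, the main plasminogen activator of macrophages, stood at -0.13 (q = 0.993), with an interval from -0.58 to 0.32, by the authors' deposited table. Plaur, its receptor, stood at -0.41 (p = 0.0567, q = 0.591), with an interval from -0.83 to 0.01, by the authors' deposited table. Anxa2, a docking site for plasminogen and tissue plasminogen activator, stood at 0.13 with an interval from -0.10 to 0.37 by the authors' deposited table. S100a10, the partner of annexin A2, stood at -0.04 (q = 0.994) by the authors' deposited table. Serpinb6a, an intracellular serpin, stood at -0.04 with an interval from -0.25 to 0.17 by the authors' deposited table; it has several close paralogs, so its value is uncertain.

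None of the 9 related genes of fibrinolysis reported here passed (median -0.07). Over all 54 related genes reported here, 0 were called at a q under 0.05 by the authors' deposited table (the submitters' processing notes name DESeq2), where 1.72% of all genes were, and 3 (C3ar1, Vkorc1 and Mrc2) reached an unadjusted p under 0.05. Mrc2, a collagen receptor of mesenchymal cells that binds the urokinase receptor, stood at -1.55 (p = 0.0114, q = 0.262) by the authors' deposited table. Plat, Serpine2, Mrc2 and F3 are expressed by fibroblasts. Their ratios, from -1.86 to -1.21, stand beside a range of -2.48 to -1.25 for the 15 stromal markers, of which Col5a1 (-1.70, q = 0.000815), Acta2 (-2.06, q = 0.0458) and Fbln2 (-2.14, q = 0.00105) passed by the authors' deposited table. Fibroblasts also make C3, C4b, C1s1 and C1ra, none of which passed and whose ratios by the authors' deposited table lay above 0, from 0.27 to 0.86. The part of stromal cells in these values was not tested.

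**Figure D3:**
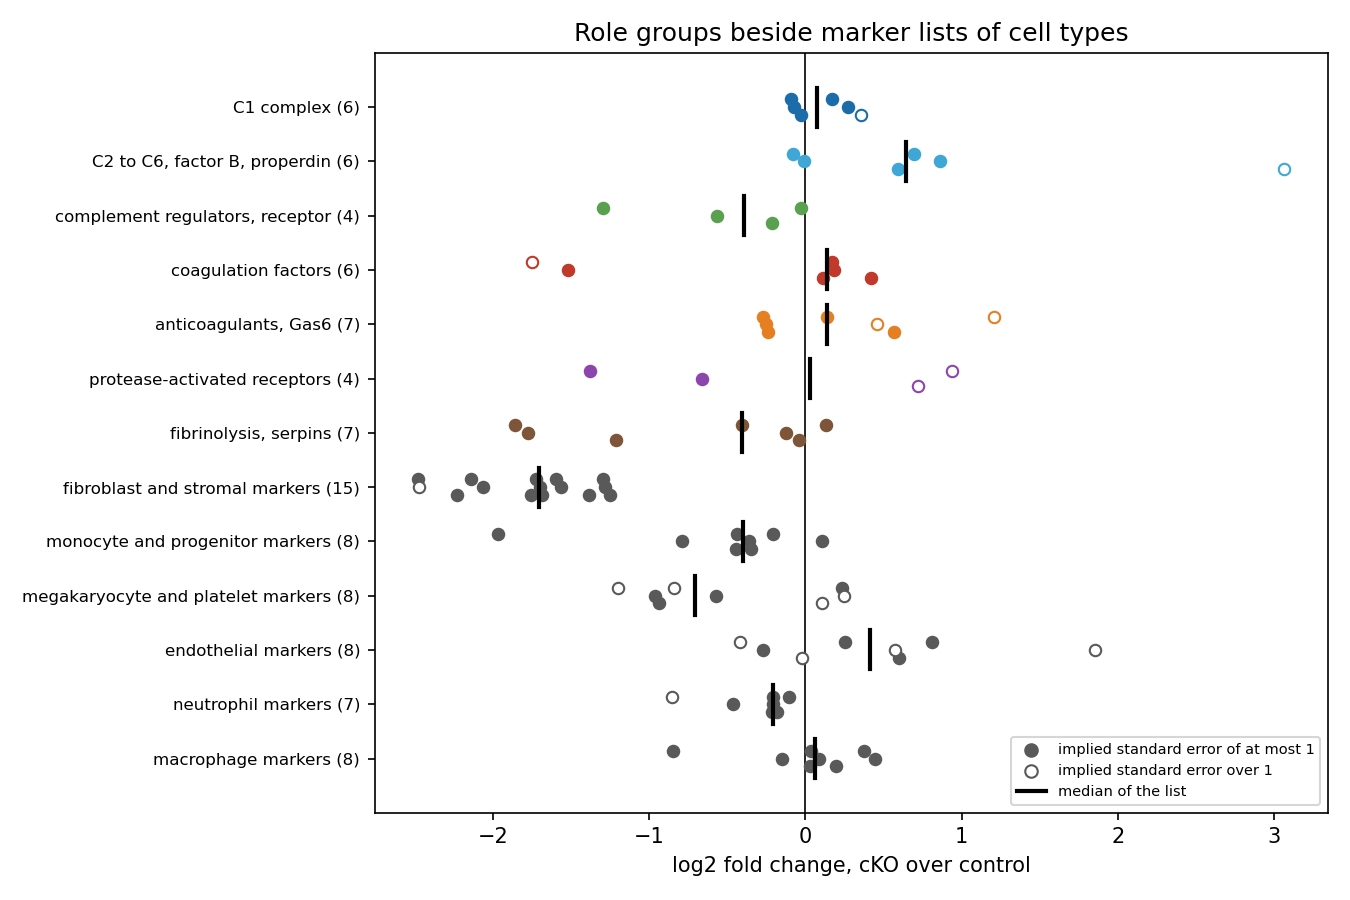
Log2 fold change of cKO over control (horizontal axis) for each gene in the role groups (colour) and in 6 lists of cell type markers (grey), with the number measured in brackets; open points have an implied standard error over 1, and bars are list medians. The stromal markers all lie below -1, and the macrophage markers have a median of 0.06. In the fibrinolysis group Plat, Serpinb2 and Serpine2 lie below -1, and Plau, Plaur, Anxa2 and Serpinb6a lie between -0.41 and 0.13. The part of stromal cells was not tested.

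Members with a ratio of -1 or less numbered 7 of 40 (17.5%), against 7.29% of all genes. Among genes whose implied standard error was 1 or less, they numbered 6 of 33 members (18.2%), against 2.52% of 12407 genes. Within that limit the members were still less precise, with a median implied standard error of 0.272 log2 units against 0.141. Imprecise genes reach -1 more readily, so these shares are not matched for precision. The 7 members at -1 or less were Plat, Serpinb2, F3, F13a1, F2r, Serping1 and Serpine2. Of these 7, F13a1 had the smallest implied standard error, 0.229 log2 units, and that of F3 exceeded 1. Only C6 and Serpinc1 had ratios of 1 or more, and neither had a standard error under 1. Over the 33 members whose implied standard error was 1 or less, the median was -0.07 with 21 below 0 (63.6%), against a median of 0.00 and 50.1% below 0 for all such genes.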

How the data were processed

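RNA of 6 macrophage cultures (3 cKO, 3 control, grouped by the labelled genotype) was extracted with TRIzol and sequenced by probe-anchor synthesis, per the labels' protocols. The authors deposited 1 log2 fold change per gene, cKO over WT, with its p-value and q-value, per the file headers. Tools named in the submitters' processing notes are Bowtie2, RSEM 1.3.1 and DESeq2 1.4.5, with the build mm9 and no role or order. A scaling of libraries or a filter on low genes was not given in the sources used here. A planned count model could not be fitted without values per library. Adjusted over the 16138 genes by the Benjamini-Hochberg method, the deposited p-values gave the deposited q-values to a relative difference of 0.00591.

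The implied standard error was the size of the log2 ratio divided by the normal quantile of its p-value taken as two-sided, and 95% intervals follow from it. The formulas were tested on data simulated with this same normal form. That checked the arithmetic and could not show whether the form holds for the deposited p-values. Genes were matched by symbol. A gene of the fibrinolysis list is not reported here. Members and lists were chosen with earlier results of these data known. Full values are given for members that passed and for up to 3 others with the smallest p in each of the 7 role groups. Of related genes and markers, those that passed are given with some others, which were not always those with the smallest p. A few more members, and markers beside results, were named after their values were seen. Promoter sequences and gene order are from RefSeq (GRCm38.p6), and no coordinate of that build was applied to the deposited values. Software was matplotlib 3.10.9, SciPy 1.17.1, NumPy 2.4.6 and pandas 2.3.3 on Python 3.11.15. Alternatives were a q under 0.01, a minimum size of 1 for the log2 ratio, a Holm adjustment, mRNA genes alone, and genes whose implied standard error was 1 or less.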

Additional observations from a re-analysis of the deposited data

How the results depend on the processing

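F13a1 was called under each of the 5 alternatives, with an adjusted p from 3.46e-08 to 5.4e-07, and no other member was called under any of them. All 5 reuse the deposited ratios and p-values. They vary the threshold, the adjustment or the genes adjusted over, and not the processing of the reads. None of the 54 related genes reported here was called by the authors' test or under any of these alternatives, and 3 had an unadjusted p under 0.05. The median of the members was -0.03, and -0.07 over the 33 with a standard error of 1 or less. No paired analysis was possible because the values used here are 1 ratio per gene over all samples. For the same reason the fits without each replicate, with DESeq2 size factors and without a filter on low counts were not run. In place of depth there are the implied standard errors, which exceed 1 log2 unit for 7 members.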

Other observations

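Other serpins, of the family that inhibits many of the proteases above, were looked at by symbol after their values were seen. Of 17 genes of clades A, B, F, H and I outside the lists above, 1 fell (5.88%, where 1.72% of all genes were called) and 16 did not pass. The lower gene was Serpinh1, the collagen chaperone HSP47, at -2.00 with q = 0.0379 by the authors' deposited table. Serpinf1, pigment epithelium-derived factor, a secreted serpin of stromal cells, stood at -2.09 (q = 0.093) by the authors' deposited table. Serpina3g, with the next smallest p, stood at 0.63 (q = 0.71) by the authors' deposited table. The median of the 17 was 0.13, and 9 of them lay above 0. For 8 of the 17 the implied standard error exceeded 1.

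F13a1 belongs to the transglutaminases, of which 8 were found. Tgm2, tissue transglutaminase, also fell, at -0.48 with an interval from -0.71 to -0.25 and q = 0.00405 by the authors' deposited table. The other 6 did not pass, and 4 of the 8 had implied standard errors over 1. This family was also chosen after its values were seen, and it holds F13a1 itself. The 2 of 8 called, where 1.72% of all genes were, are therefore a description.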
